A study of Mus musculus with 116 samples.

Results

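Tubulins are the proteins that microtubules are built from, and 10 tubulin genes were followed here through every library of 2 cultured mouse cell lines. They were taken by name and make up 10 of the 40202 gene symbols counted: the alpha genes Tuba1a, Tuba1b, Tuba1c and Tuba4a, the beta genes Tubb2a, Tubb2b, Tubb3, Tubb5 and Tubb6, and the gamma gene Tubg1. C10 is labelled as an alveolar type II epithelial line and SVEC as an endothelial line. All cells were untreated and grown by routine culture, and all libraries came from nanoSPLITS, which splits the nanodroplet that holds lysed cells so that RNA and protein can be read from the same material. Single-cell libraries were made from 48 C10 and 48 SVEC cells, and an input series from 1 C10 cell (n = 8), 3 C10 cells (n = 6) and 10 C10 cells (n = 6). No separate cultures are named for either line, so each line is 1 culture as far as the labels say, and the lines are described side by side with no test.

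Alpha and beta tubulin pair into the building block of the microtubule, and gamma tubulin sits in the ring complex from which new microtubules grow. Mammals carry several alpha and beta genes, called isotypes, that encode nearly the same protein; the products differ most in the acidic tail at the end of the chain, which faces outward and is where many microtubule-binding proteins and modifying enzymes act. Dividing cells take their microtubules apart and rebuild them as the mitotic spindle. Cells also hold tubulin mRNA in check by a feedback in which excess free tubulin triggers decay of its own mRNA.

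The ends of the coding sequences show how some of the beta genes differ in the tail. The last 60 coding bases before the stop codon of 4 beta genes are given below, taken from GENCODE M21 transcripts and written 5′ to 3′. Capitals mark bases that differ from Tubb5 in a global alignment or that lie opposite a gap in Tubb5.
Tubb5: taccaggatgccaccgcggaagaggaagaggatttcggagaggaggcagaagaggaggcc
Tubb2a: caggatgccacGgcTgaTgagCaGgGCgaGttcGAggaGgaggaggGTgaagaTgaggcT
Tubb2b: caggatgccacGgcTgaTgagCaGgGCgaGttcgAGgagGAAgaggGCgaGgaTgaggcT
Tubb3: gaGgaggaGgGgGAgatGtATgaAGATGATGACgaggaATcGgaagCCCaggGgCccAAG
Against Tubb5, the tails held 15 capitals in Tubb2a, 18 in Tubb2b and 29 in Tubb3, inserted bases included.

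Over the whole coding sequence, Tuba1a and Tuba1b were 98.3% identical (23 differing bases of 1356), Tuba1a and Tuba1c 97.6%, and Tubb2a and Tubb2b 96.5%. Tuba1a and Tuba4a shared 85.3% and Tubb5 and Tubb6 80.7%. These percentages leave out gap positions, unlike the capitals in the tails. A read of 150 bases, the length sequenced here, would match the transcript of another gene exactly at 54.7% of its possible positions on Tuba1a, 46.7% on Tuba1c, 45.7% on Tuba4a (all of them shared with the overlapping gene Stk16), 27.9% on Tubb2a and 20.1% on Tubb2b. On Tubb3, Tubb5 and Tubb6 there was no such position, and on Tubg1 there were 0.907%. How the authors' counting treated reads that match several genes is not given in the sources used here, and the counter for such reads was 0 in every library, so the split between Tuba1a and Tuba1c and between Tubb2a and Tubb2b is uncertain.

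Depth and identity of the libraries were as follows. A total of 2 C10 single-cell libraries with under 1000 gene counts were left out. The other 46 C10 cells held 83188 to 5911755 gene counts, the 48 SVEC cells 5122 to 2831907, the 1-cell libraries of the input series 430798 to 15385625, the 3-cell libraries 6889508 to 14018116 and the 10-cell libraries 8313314 to 14778988. Of 10 alveolar type II markers 6 had 0 counts in both lines, among them Sftpb and Sftpc, which encode surfactant proteins. Of 10 endothelial markers 5 had 0 counts in both lines (Kdr, Tie1, Emcn, Vwf and Cldn5), and the summed level of the list was, at the median, 0.596 CPM (counts scaled to 1000000 gene counts per library) in C10 (highest cell 48.3 CPM) and 0 CPM in SVEC (highest cell 138 CPM). The 1 endothelial marker with a mean of at least 10 CPM, Flt1, a receptor for vascular growth factor, had a mean of 11.4 CPM over SVEC cells (counted in 8) against 0.592 CPM over C10 cells (counted in 13). The 7 epithelial markers summed to a median of 0.317 CPM and a highest cell of 239 CPM in C10, with 3 genes at 0, and to 0 CPM and 1.44 CPM in SVEC, with 6 genes at 0. Genes of the fibroblast list were present in both lines, and their summed level had a median of 2392 CPM over C10 cells and 1251 CPM over SVEC cells. Most of that sum was Dcn, at means of 2591 CPM and 1305 CPM. Of 6 fibroblast genes at 10 CPM or more, 3 (Col1a2, Pdgfra and Pdgfrb) were at least 2-fold higher in SVEC and 0 in C10. Over all genes at that level the shares were 23.8% and 15.6%. Thy1 and Lum had 0 counts in both lines. Most defining genes of the labelled cell types were at or near 0 in most cells, and the lines are called by their names here. Neuronal markers, relevant because Tubb3 is best known from neurons, summed to a median of 0.823 CPM over C10 cells (highest 32.3 CPM) and 0 CPM over SVEC cells (highest 45.5 CPM).

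Tuba1b, the alpha gene that differs from Tuba1a by so few bases, had 0 counts in all 116 libraries. Its span lies wholly inside that of Gm41396, a long non-coding RNA gene, in the RefSeq annotation of GRCm38.p6, and Gm41396 itself held 2075 counts over all libraries. Of 894 protein-coding genes whose span lies wholly inside other genes in that annotation, 872 (97.5%) had 0 counts in every library, against 32.2% of 14004 genes that share no span and 9.72% of 6814 that share part of theirs. Whether reads over Tuba1b were set aside for that reason was not tested. Its 0 is therefore given as a count and not as a level, and the alpha shares that follow are shares among Tuba1a, Tuba1c and Tuba4a.

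In C10 and SVEC alike, the highest tubulin levels were those of Tuba1a, Tubb5 and Tuba1c, and the totals differed by far less than the spread between cells. Summed over the 10 genes, the lowest, median and highest C10 cells had 636 CPM, 3249 CPM and 8907 CPM, and the SVEC cells 303 CPM, 3700 CPM and 8759 CPM. The means were 3482 ± 1845 CPM (SD, n = 46) in C10 and 3722 ± 2067 CPM (SD, n = 48) in SVEC. The ranges lay almost on top of each other, and the log2 ratio of the means, -0.10, turned to 0.31 under TMM scaling. That scaling moved all genes together: the median log2 ratio of C10 over SVEC was -0.12 with totals of gene counts and 0.32 with TMM factors.

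Among the alpha genes, Tuba1a, which is prominent in the developing brain and also made in many cultured cells, was counted in 46 of 46 C10 and 46 of 48 SVEC cells. Its lowest, median and highest levels were 36.6 CPM, 1019 CPM and 3221 CPM in C10, and 0 CPM, 992 CPM and 4507 CPM in SVEC. The means were 1142 ± 767 CPM (SD, n = 46) and 1103 ± 823 CPM (SD, n = 48), a log2 ratio of 0.05 that was -0.10 in libraries with at least 100000 counts, and 24 of 46 C10 cells stood above the SVEC median.

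Tuba1c, a widely made alpha isotype, leaned toward SVEC. C10 cells had 64.5 CPM at the lowest, 431 CPM at the median and 1867 CPM at the highest, against 0 CPM, 711 CPM and 2009 CPM in SVEC. The means were 553 ± 430 CPM (SD, n = 46) and 781 ± 503 CPM (SD, n = 48), or 1.41-fold higher in SVEC. The ranges overlapped, but only 10 of 46 C10 cells exceeded the SVEC median and 34 of 48 SVEC cells exceeded the C10 median. Under TMM scaling the log2 ratio shrank from -0.50 to -0.08.

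Tuba4a differs from the other alpha genes in ending without the tyrosine that enzymes remove from and return to alpha tubulin. It had a median of 138 CPM in C10, with a highest cell of 564 CPM, and in SVEC a median of 0 CPM and a highest cell of 612 CPM. It was counted in 38 of 46 C10 cells and 22 of 48 SVEC cells, and the means were 139 ± 110 CPM (SD, n = 46) and 108 ± 154 CPM (SD, n = 48). The difference lay in how many cells had any count more than in the mean. With every cell drawn to 100000 counts, which left out 1 C10 and 6 SVEC cells, Tuba4a was seen in 82.2% of 45 C10 cells (exact 95% interval 67.9% to 92.0%) and in 21 of 42 SVEC cells (34.2% to 65.8%). The draw matches the total of reads and not the number of molecules, the intervals cover counting error in these cells only, and the lines were not tested against each other. The span of Tuba4a shares 28.6% with other genes, so part of its counts could belong to them or be missing.

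Tubb5, a beta isotype made in most tissues and cultured cells, was the leading beta gene. Its lowest, median and highest C10 cells had 2.33 CPM, 920 CPM and 2850 CPM, and the SVEC cells 0 CPM, 690 CPM and 2643 CPM. The means were 1014 ± 641 CPM (SD, n = 46) and 846 ± 580 CPM (SD, n = 48), a log2 ratio of 0.26 that was 0.70 under TMM scaling. Above the SVEC median lay 31 of 46 C10 cells.

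Tubb6, a broadly made beta isotype, leaned the other way. C10 cells had a median of 158 CPM and a highest value of 1186 CPM, and SVEC cells a median of 331 CPM and a highest value of 2129 CPM. The lowest cell of each line was at 0 CPM. The means were 268 ± 282 CPM (SD, n = 46) and 470 ± 482 CPM (SD, n = 48), 1.75-fold higher in SVEC. The ratio stayed between 1.62-fold and 1.90-fold when any 1 cell was left out. Under TMM scaling the log2 ratio of C10 over SVEC shrank from -0.81 to -0.40. Only 11 of 46 C10 cells exceeded the SVEC median.

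Tubb2a and Tubb2b, a pair of beta genes that are abundant in neurons, were low and variable. The median of Tubb2a was 114 CPM over C10 cells and 139 CPM over SVEC cells, and its means were 165 ± 158 CPM (SD, n = 46) and 207 ± 239 CPM (SD, n = 48). Tubb2b had medians of 19.3 CPM and 17.6 CPM, with means of 24.1 ± 22.9 CPM (SD, n = 46) and 30.8 ± 38.7 CPM (SD, n = 48). The counts of the pair moved in step. In the 60 libraries of all groups with at least 20 Tubb2b counts, Tubb2a had 6.37 times as many counts at the median, with quartiles of 5.84 and 7.28 and a full range of 2.61 to 8.95. In each of the 24 libraries with no Tubb2a count, Tubb2b had none either. Across cells, the rank correlation of the pair was 0.944 in C10 (n = 46) and 0.944 in SVEC (n = 48). The ratio of Tuba1a to Tuba1c counts was far less steady, from 0.193 to 10.2 over 109 libraries, with a coefficient of variation (CV, the SD divided by the mean) of 0.729 against 0.184 for the Tubb2 pair. The near-fixed ratio was seen in both lines and at all input sizes, and the part of reads shared between the near-identical copies in it was not tested.

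Tubb3, the beta isotype used as a marker of neurons, was the lowest counted member. C10 cells had a median of 0.867 CPM and a highest cell of 162 CPM. It had counts in 30 of 46 C10 and 5 of 48 SVEC cells, and means of 11.3 ± 33.6 CPM (SD, n = 46) and 1.90 ± 10.4 CPM (SD, n = 48), a 5.91-fold difference that rests on few cells. SVEC replicate 41 alone held 71.6 CPM, and without it the ratio was 26.7-fold, while leaving out any other cell gave at least 4.15-fold. Drawn to 100000 counts, Tubb3 was seen in 17.8% of C10 cells (exact 95% interval 8.00% to 32.1%) and 9.52% of SVEC cells (2.66% to 22.6%), against 65.2% and 10.4% of all cells at full depth. Drawn to 50000 counts, it was seen in 19.6% of C10 and 4.55% of SVEC cells.

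Tubg1, the gamma tubulin of the ring complex, had a median of 140 CPM and a highest value of 527 CPM in C10, and 181 CPM and 551 CPM in SVEC. The means of 164 ± 138 CPM (SD, n = 46) and 174 ± 152 CPM (SD, n = 48) gave a log2 ratio of -0.08, which was 0.21 under TMM scaling.

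Of the 9 members with a mean of at least 10 CPM in at least 1 line, 1 (Tubb3) was at least 2-fold higher in C10 and 0 were at least 2-fold higher in SVEC. Among all 8934 genes at that level, 15.6% were at least 2-fold higher in C10 and 23.8% in SVEC. Under TMM scaling those shares of all genes became 25.8% and 15.0% of 9056 genes, and Tubb3 was still the 1 member past the fold. With medians over cells in place of means, the members past it were Tuba4a in C10 and Tubb6 in SVEC. Of all 3868 genes at 10 CPM or more by medians, 1988 were at least 2-fold higher in C10 and 308 in SVEC.

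**Figure D1:**
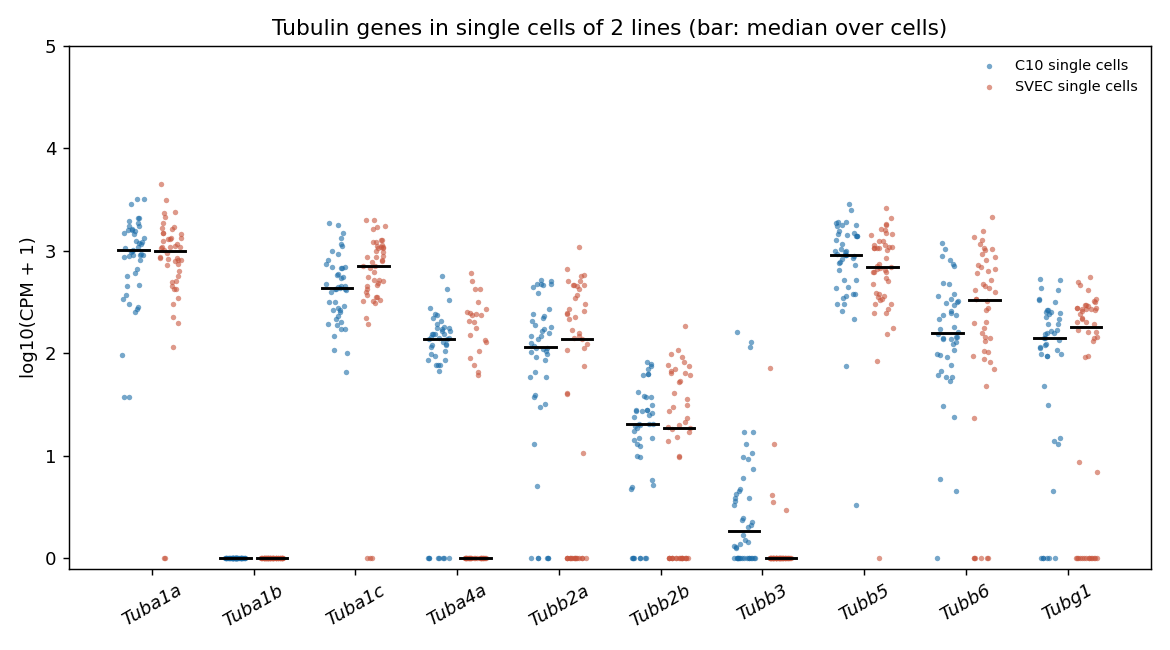
Level of each of the 10 tubulin genes in single cells, as log10(CPM + 1), with 1 point per cell (46 C10 cells, 48 SVEC cells) and a bar at the median over cells. Clouds of the lines overlap for every counted gene, Tuba4a has its SVEC median at 0, and Tuba1b is at 0 in all cells.

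To compare genes with each other, levels were divided by the length of all annotated exons, since full-length reads pile up with length. In C10 the mean levels per kilobase, in CPM per kb, ran from Tuba1a at 634 ± 425 (SD, n = 46) through Tubb5 at 305, Tuba1c at 242, Tubb6 at 110, Tubb2a at 103, Tubg1 at 72.3, Tuba4a at 37.6 and Tubb2b at 10.5 to Tubb3 at 6.02. Within cells, Tuba1a stood above Tubb5 in 37 of 46 and Tuba1c above Tubb6 in 44 of 46. The steps from Tubb5 to Tuba1c, from Tubb6 to Tubb2a, from Tubb2a to Tubg1 and from Tubb2b to Tubb3 were smaller than the SD of either neighbour. In SVEC the order was Tuba1a at 612 ± 456 (SD, n = 48), Tuba1c at 342, Tubb5 at 254, Tubb6 at 193, Tubb2a at 129, Tubg1 at 76.6, Tuba4a at 29.1, Tubb2b at 13.4 and Tubb3 at 1.02 CPM per kb. Tuba1c and Tubb5 had changed places there, but Tuba1c was the higher of the pair in 26 of 48 SVEC cells and the lower in 22, so these neighbours did not differ beyond their spread. In SVEC the steps from Tubb5 to Tubb6, from Tubb6 to Tubb2a, from Tubb2a to Tubg1 and from Tuba4a to Tubb2b were also smaller than the SD of either neighbour.

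Isotype use was then taken as the share of each gene in its family within a library, per length, which does not depend on the library total. Tuba1a made up 65.6% ± 17.5 (SD, n = 46) of the alpha signal in C10, with a lowest cell at 19.6% and a highest at 92.8%, and was the leading alpha gene in 38 of 46 cells. In SVEC it made up 60.4% ± 12.2 (SD, n = 45) and led in 38 of 45 cells. Tuba1c held 28.9% ± 16.5 (SD, n = 46) and 36.8% ± 12.4 (SD, n = 45), and Tuba4a 5.44% and 2.80%. The alpha families of the lines thus had the same order, and the differences in share were smaller than the SD between cells.

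The beta family differed more. Tubb5 made up 56.8% ± 16.9 (SD, n = 46) of the beta signal in C10 and led in 39 of 46 cells, against 48.0% ± 22.7 (SD, n = 43) and 27 of 43 cells in SVEC. Tubb6 held 19.7% ± 15.3 (SD, n = 46) in C10 and 30.8% ± 19.5 (SD, n = 43) in SVEC, and led in 1 C10 cell and 12 SVEC cells. Within cells, Tubb5 stood above Tubb6 in 45 of 46 C10 cells and 33 of 48 SVEC cells. Tubb2a held 20.4% and 19.1%, Tubb2b 2.10% and 1.94%, and Tubb3 0.978% and 0.181%. The mean shares of Tubb5 and Tubb6 differed between lines by less than the SD between cells.

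The shares of Tuba1a and Tubb5 were narrower over 10-cell libraries than over 1-cell libraries, but not at each step. Over 3-cell libraries the SD of the Tubb5 share was near the 16.9 of the 46 C10 single cells. The SD of the Tuba1a share was lower at 3 cells than at 10. In the 10-cell libraries Tuba1a made up 59.1% ± 6.01 (SD, n = 6) of the alpha signal and Tubb5 59.8% ± 4.60 (SD, n = 6) of the beta signal, and each led its family in 6 of 6 libraries. In the 3-cell libraries the same shares were 68.0% ± 4.35 (SD, n = 6) and 56.2% ± 16.1 (SD, n = 6), and in 7 of the 1-cell libraries Tubb5 held 64.2% ± 31.1 (SD, n = 7) and Tuba1a 55.0% ± 18.3 (SD, n = 7). Tubb5 ranged from 9.47% to 99.1% over those 7 libraries. Replicate 1 of the 1-cell libraries had 0 counts on all 10 tubulin genes among 430798 gene counts, which allows up to 6.96 CPM for each, and has no shares. That library had 538 genes counted and 95.1% of its reads not aligned. The other 7 had at least 5998 genes counted and at most 51.0% of reads not aligned. Whether the 0 counts of replicate 1 give the level of a cell was not tested. With coding length in place of exon length, Tubb5 rose to 70.0% and Tuba1a moved to 50.9% in the 10-cell libraries, each still the largest of its family, so the size of a share depends on the length used.

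**Figure D2:**
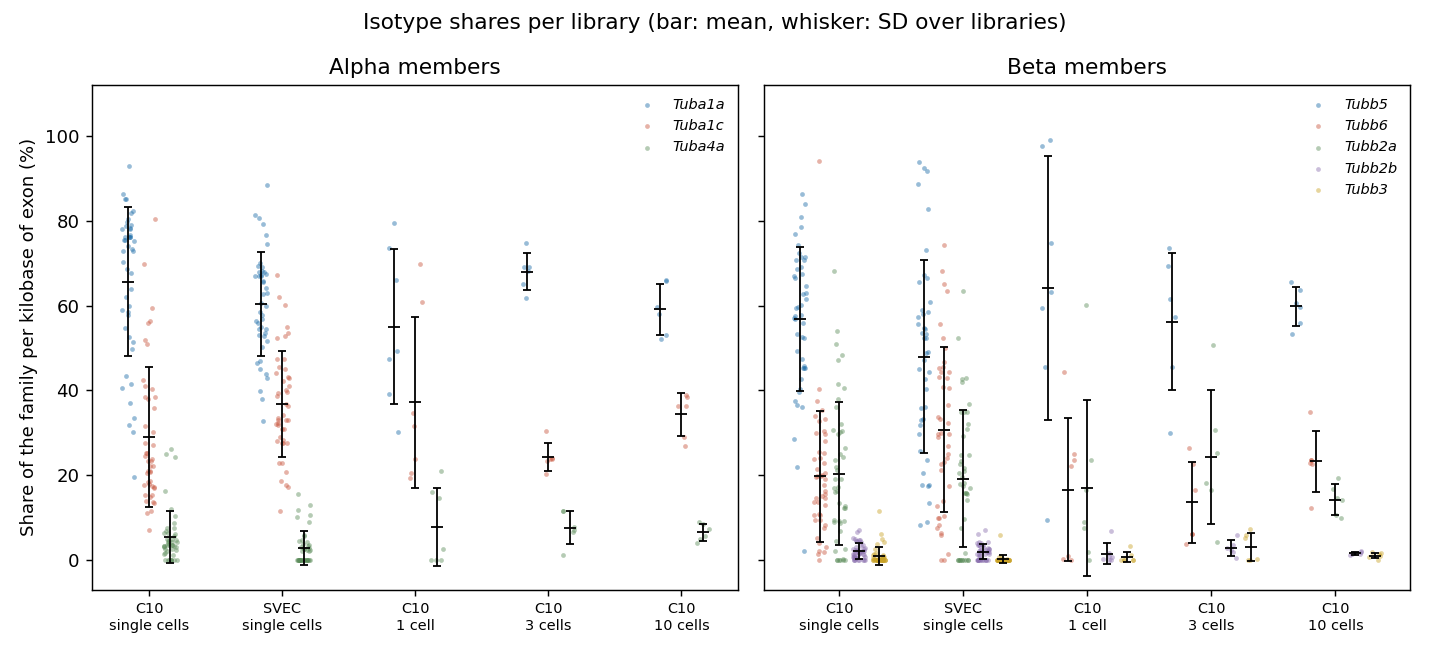
Share of each counted alpha (left) and beta (right) tubulin gene in its family, in percent per kilobase of exon, with 1 point per library, the mean as a bar and the SD as a whisker, for C10 and SVEC single cells and for C10 libraries of 1, 3 and 10 cells. Tuba1a and Tubb5 have the highest mean share in all 5 groups. The whiskers of Tubb5 shrink from 31.1 percentage points in the 1-cell libraries of the input series to 4.60 at 10 cells. They are 16.9 over C10 single cells and 16.1 at 3 cells.

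With replicate 1 of the 1-cell libraries included at 0 CPM, spread between libraries was lower at 10 cells than at 1 cell for each counted member. The CV of Tuba1a was 0.663 over 8 libraries of 1 cell, 0.345 over 6 of 3 cells and 0.192 over 6 of 10 cells. Tubb5 went from 0.632 to 0.488 and 0.195, Tuba1c from 0.601 to 0.290 and 0.237, and the sum of the members from 0.463 to 0.250 and 0.171. Over all genes with a mean of 500 to 2000 CPM the median CV was 0.675, 0.284 and 0.215. Tubb5 at 3 cells was above the upper quartile of those genes, 0.385. Without replicate 1, the 1-cell CV was 0.497 for Tuba1a, 0.420 for Tuba1c and 0.460 for Tubb5, so the fall of Tubb5 from 1 cell to 3 cells was lost.

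Within the single-cell sets the lines compared differently with that background. In C10 the CV was 0.671 for Tuba1a, 0.778 for Tuba1c and 0.632 for Tubb5, each above the upper quartile of 0.544 of the 309 genes with means of 500 to 2000 CPM, whose median was 0.453. In SVEC the same genes had 0.745, 0.643 and 0.685, near the median of 0.728 over 311 genes. Tubb6 had 1.05 in C10 and 1.03 in SVEC, against medians of 0.774 and 1.26 for genes with means of 100 to 500 CPM.

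**Figure D3:**
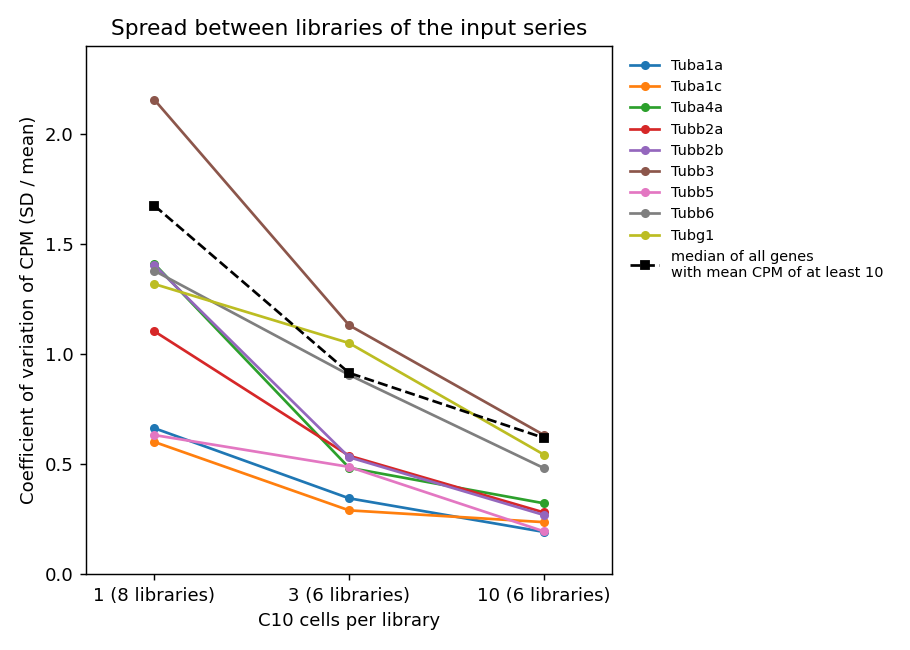
CV of CPM (SD divided by mean) over libraries of 1, 3 and 10 C10 cells for each counted tubulin gene, with the median of all genes with a mean CPM of at least 10 as a dashed line. All 9 lines fall from 1 cell to 10 cells, Tuba1a from 0.663 to 0.192, and Tubb3 lies highest throughout. The 1-cell values include replicate 1, which had 0 counts on every member.

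The pools of 3 and 10 cells were the groups in which libraries could be tested against each other, by edgeR's quasi-likelihood test over 13602 genes with Benjamini-Hochberg adjustment. No separate cultures are named for them, so these p-values measure only the spread between libraries, which may be technical. Tuba1a had a lowest, median and highest level of 880 CPM, 1124 CPM and 2082 CPM in the 3-cell libraries and 685 CPM, 825 CPM and 1167 CPM in the 10-cell libraries. These ranges overlapped, and its log2 ratio of 10 cells over 3 cells was -0.68 (SE 0.21, unadjusted p = 0.00645, adjusted p = 0.210 in edgeR). Tubb2a, at 54.1 CPM, 189 CPM and 319 CPM against 62.1 CPM, 110 CPM and 146 CPM, had a log2 ratio of -0.91 (SE 0.42, adjusted p = 0.416 in edgeR). None of the 9 counted members passed an adjusted p of 0.05 (2 had an unadjusted p under 0.05), and 0% of all genes did, with 0 of 13602 past the threshold in edgeR and 1592 at an unadjusted p under 0.05. Limma called 14 genes and DESeq2 564, with 0 members among them. The summed tubulin level was 3244 ± 556 CPM (SD, n = 6) at 10 cells and 3771 ± 943 CPM (SD, n = 6) at 3 cells (exact two-sided permutation test, p = 0.266). When changes were built into simulated pools, edgeR found 26.5% of those with a log2 size of 4 and 4.5% of those with a log2 size of 2. The 200 changed genes were drawn at random from all genes with a mean of at least 10 counts. They were not matched to the tubulins in level or spread, so these rates do not give the rate for any single member. The SE of the members ran from 0.21 for Tuba1a to 1.40 for Tubb3.

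Cells of a culture are caught at different points of the division cycle. In C10, some tubulins followed genes of the G2/M phases far more than others. A G2/M score was taken in each cell as the mean log2(CPM + 1) of 26 genes such as Mki67, Ccnb1 and Plk1. It ran from 0.0520 to 7.97 in C10, with a median of 1.78, and from 0 to 9.29 in SVEC, with a median of 2.03. In C10 the rank correlation with the score was 0.854 for Tuba1c, 0.801 for Tubb6 and 0.690 for Tubb5, but 0.238 for Tuba1a, 0.218 for Tubb2a, 0.171 for Tuba4a and 0.104 for Tubb3 (n = 46 cells each). Pearson's r was 0.819 for Tuba1c, 0.652 for Tubb6 and 0.280 for Tuba1a, and 0.785, 0.642 and 0.303 without the 2 cells farthest from the median score.

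The cells at the ends of the C10 score show what lies behind these values. The 3 cells with the lowest scores, replicates 29, 23 and 32, had Tuba1c at 64.5 CPM, 191 CPM and 107 CPM. The 3 cells with the highest scores, replicates 1, 34 and 2, had Tuba1c at 1495 CPM, 1867 CPM and 1340 CPM. Tuba1a in the same cells was 337 CPM, 36.8 CPM and 36.6 CPM at the low end and 871 CPM, 917 CPM and 1615 CPM at the high end. Both genes were higher in each of the high cells than in each of the low ones. Tuba1c at the high end was near its highest value in the line, whereas Tuba1a there was below its C10 median of 1019 CPM in 2 of 3 cells.

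In SVEC, Tubb6 and Tuba1c led the members by rank correlation, at lower values. The rank correlation was 0.527 for Tuba1c, 0.557 for Tubb6, 0.374 for Tubb5, 0.238 for Tuba1a and 0.356 for Tubb2a (n = 48 cells each). Pearson's r was 0.517 for Tubb6, 0.382 for Tuba1c, 0.334 for Tubb2a, 0.311 for Tuba1a and 0.311 for Tubb5, so Tuba1c stood little apart by that measure. In cells with at least 100000 counts, Pearson's r was 0.533 for Tuba1c, 0.468 for Tubb6, 0.280 for Tubb2a and 0.230 for Tuba1a. Among the 42 SVEC cells with at least 100000 counts it was 0.479 for Tuba1c, 0.505 for Tubb6, 0.296 for Tubb5, 0.310 for Tubb2a and 0.115 for Tuba1a, so Tubb5 did not stand apart from Tubb2a there. Tubb4b, a beta gene outside the member list that is made in most tissues and was widely counted here, had 0.722 in C10 and 0.798 in SVEC. Cells share their depth across all genes, and the score itself had a rank correlation of 0.289 with total counts in C10 and 0.270 in SVEC, so the values are descriptions of these cells. The difference between lines in these correlations was not tested.

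**Figure D4:**
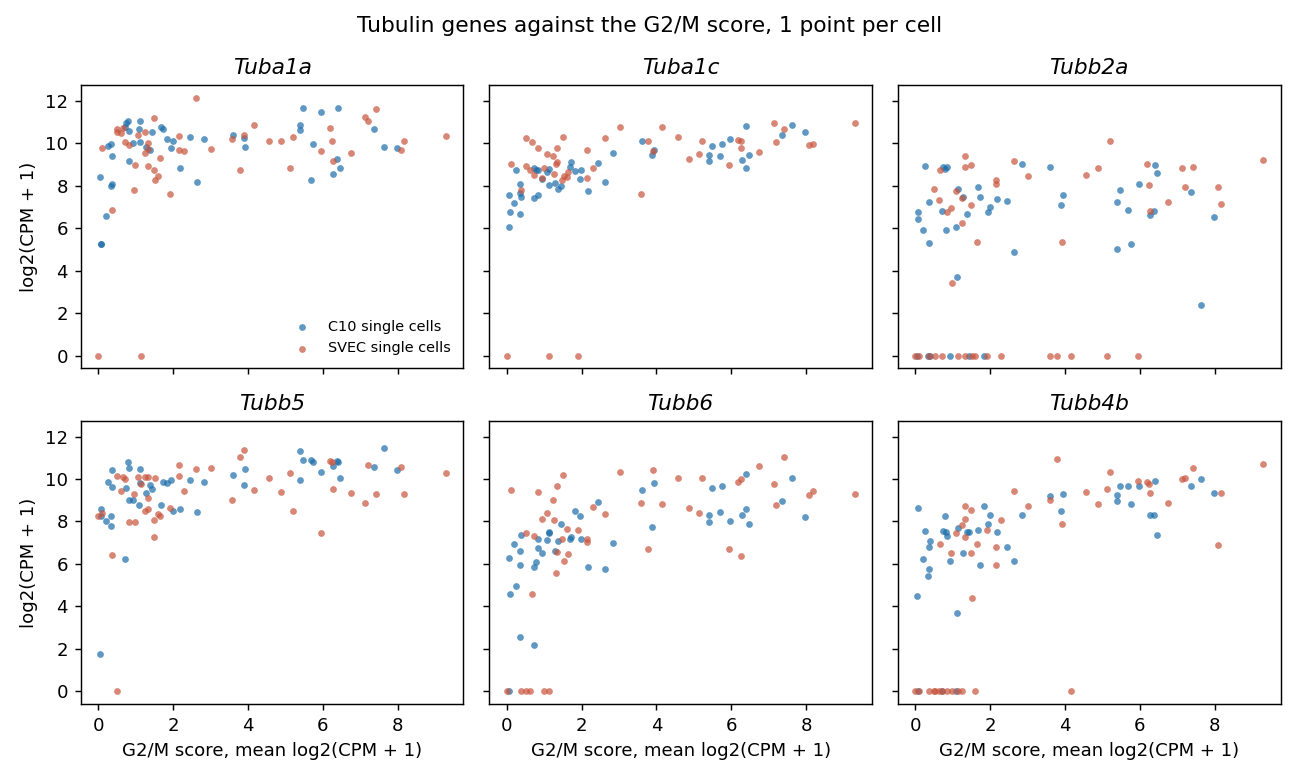
Level of 6 tubulin genes as log2(CPM + 1) against the G2/M score (mean log2(CPM + 1) of 26 genes), with 1 point per cell for 46 C10 and 48 SVEC cells. In C10, Tuba1c, Tubb6 and Tubb4b climb with the score, while Tuba1a and Tubb2a show less slope (rank correlations of 0.854, 0.801, 0.722, 0.238 and 0.218). In SVEC the genes are less distinct, with Pearson's r of 0.382, 0.517, 0.660, 0.311 and 0.334 in the same order.

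The lines also differed in these cycle genes, in the direction in which Tuba1c and Tubb6 leaned and against that of Tubb5. Tubb5 also followed the score in C10, but its log2 ratio of C10 over SVEC was 0.26, and 0.70 under TMM scaling. For Tuba1c it was -0.50 and -0.08. Of the 25 G2/M genes with a mean of at least 10 CPM, 14 were at least 2-fold higher in SVEC and 0 in C10, where 23.8% and 15.6% of all genes were. Under TMM scaling 10 and 1 were, with 15.0% and 25.8% of all genes. Their summed level ran from 1.55 CPM to 13568 CPM in C10, with a median of 780 CPM, and from 0 CPM to 25550 CPM in SVEC, with a median of 1993 CPM. The part of the G2/M genes in the SVEC lean of Tuba1c and Tubb6, and in the C10 lean of Tubb5, was not tested.

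In C10, the members that followed the score also followed each other. The rank correlations were 0.751 for Tuba1c with Tubb5, 0.752 for Tuba1c with Tubb6 and 0.758 for Tubb5 with Tubb6 (n = 46). In SVEC they were 0.339, 0.542 and 0.277 (n = 48) and did not stand out, since Tuba1a with Tubb2a gave 0.601 and Tubb2b with Tubg1 0.613. Tuba1a with Tuba1c gave 0.487 in C10 and 0.683 in SVEC.

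Genes outside the family were ranked by how closely their CPM followed the summed tubulins, by rank correlation. In C10, over 46 cells and 1816 genes counted in at least 90% of them, the nearest were Ran at 0.660, Tenm4 at 0.630, Kpna2 at 0.619, Vmn2r59 at 0.615 and Lrp1b at 0.604, with a median of 0.00487 over all those genes. In SVEC, over 48 cells and 445 genes, they were Hmgb2 at 0.576, Slc25a4 at 0.530, Calr at 0.522, LOC118568145 at 0.507 and Hspa8 at 0.501, with a median of 0.0212. Named in SVEC, Hmgb2 had 0.585 in C10, and Kpna2, named in C10, had 0.503 in SVEC. The other genes named in SVEC had low values in C10: Slc25a4 0.127, Hspa8 0.0854, LOC118568145 -0.0900 and Calr -0.234. The other genes named in C10 had 0.407 (Lrp1b), 0.392 (Ran), 0.334 (Tenm4) and 0.139 (Vmn2r59) in SVEC. The sets of genes ranked differed in size between the lines. Ran is a GTPase that drives nuclear transport and spindle assembly, and Kpna2 is an import receptor it works with. Hmgb2 is a chromatin protein abundant in dividing cells. These functions are background, none is given for the other named genes, and no shared theme of the named genes was tested. The summed tubulins themselves had a rank correlation with total counts of 0.472 in C10 and 0.336 in SVEC. For the named genes it ran from 0.210 (Kpna2) to 0.389 (Ran) in C10. In SVEC it ran from -0.00793 (Hmgb2) to 0.523 (Calr).

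Tubulin genes outside the members were counted in part. Of 10, Tuba3a, Tuba3b, Tuba8, Tubal3 and Tubb1 had 0 counts in the single cells of both lines, and Tubb4a and Tubg2 stayed under 10 CPM on average. Tubb4b had 310 ± 280 CPM (SD, n = 46) in C10 and 405 ± 482 CPM (SD, n = 48) in SVEC. Counted as a beta gene, it would hold 19.6% of the C10 beta signal, and Tubb5 would move to 45.5%. Tubd1, the delta tubulin of centrioles, was 2.61-fold higher in C10 (21.4 ± 43.3 CPM against 8.18 ± 34.6 CPM). The ratio was 5.57-fold without SVEC replicate 43, 1 of 5 SVEC cells with a count, and 2.29-fold without C10 replicate 39. Tube1, the epsilon tubulin of centrioles, was counted in 12 SVEC and 7 C10 cells and was 3.96-fold higher in SVEC (72.3 ± 175 CPM against 18.3 ± 58.6 CPM). Its ratio was 6.61-fold without C10 replicate 15 and 3.08-fold without SVEC replicate 27.

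Around the tubulins, more genes of the gamma-tubulin ring complex were higher in SVEC. Of its 7 genes with at least 10 CPM, 5 were at least 2-fold higher in SVEC and 0 in C10, with a median log2 ratio of -1.11 against -0.12 over all genes, of which 23.8% and 15.6% were past the fold. Under TMM scaling 2 were, where 15.0% of all genes were at least 2-fold higher in SVEC and 25.8% in C10. With totals of gene counts, 2 of the 5 (Nedd1 and Tubgcp4) stayed past the fold whichever cell was left out. Nedd1, which brings the ring complex to the centrosome and spindle, had 115 ± 193 CPM (SD, n = 48) in SVEC and 26.1 ± 75.7 CPM (SD, n = 46) in C10, a 4.40-fold difference that was at least 3.78-fold without any 1 cell. Tubgcp3, a core ring subunit, was 2.21-fold higher in SVEC, and 1.89-fold without SVEC replicate 5. Tubgcp4, another ring subunit, was 5.74-fold higher in SVEC, of which 1 cell, SVEC replicate 44 at 1007 CPM, held most, and without it the ratio was 2.28-fold. Tubg1 itself, with a log2 ratio of -0.08, was not among them.

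Few genes of the folding machinery differed between the lines. Tubulin is folded by prefoldin and the CCT chaperonin and joined into the alpha-beta pair by the cofactors Tbca to Tbce. Of 19 such genes at 10 CPM or more, 1 was at least 2-fold higher in C10 and 1 in SVEC (15.6% and 23.8% of all genes), with a median log2 ratio of -0.06. They were Pfdn6, a prefoldin subunit, at 233 ± 128 CPM (SD, n = 46) in C10 and 109 ± 155 CPM (SD, n = 48) in SVEC, and Tbcb, a cofactor for alpha tubulin, at 18.4 ± 15.0 CPM (SD, n = 46) in C10 and 61.8 ± 56.3 CPM (SD, n = 48) in SVEC. Tbca, a cofactor for beta tubulin, was 1.72-fold higher in SVEC and 1.17-fold without SVEC replicate 20, which held 8345 CPM.

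Of 13 genes of tubulin modification and tubulin mRNA decay, 6 were at least 2-fold higher in SVEC and 0 in C10 (23.8% and 15.6% of all genes), with a median log2 ratio of -0.70. Under TMM scaling 5 and 2 were (15.0% and 25.8% of all genes), and 4 of the 6 stayed past the fold whichever single cell was left out. The largest ratios were those of genes counted in few cells. Vash2, a carboxypeptidase that removes the final tyrosine of alpha tubulin, had counts in 2 C10 and 6 SVEC cells (1.47 CPM against 16.2 CPM). Its 11.1-fold ratio was 49.2-fold without C10 replicate 25 and 8.16-fold without SVEC replicate 18. Ttl, the ligase that puts the tyrosine back, had a mean of 5.33 CPM over C10 and 30.9 CPM over SVEC cells, a 5.80-fold ratio that was 1.21-fold without SVEC replicate 48. Agbl5, which trims glutamate residues from tubulin tails, was at 2.72 CPM and 13.8 CPM, 5.06-fold higher in SVEC and 3.02-fold without SVEC replicate 46. Ttc5, which recognises new tubulin chains in the mRNA feedback, was at 19.6 ± 48.8 CPM (SD, n = 46) in C10 and 59.3 ± 129 CPM (SD, n = 48) in SVEC.

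Of 13 genes that set microtubule dynamics, 4 were at least 2-fold higher in SVEC and 0 in C10 (23.8% and 15.6% of all genes), with a median log2 ratio of -0.40, and 3 of the 4 stayed so whichever cell was left out. Under TMM scaling 4 and 2 were (15.0% and 25.8% of all genes). Stmn1, which binds free tubulin and promotes disassembly, stood out by its level, at 1857 ± 1354 CPM (SD, n = 48) in SVEC and 434 ± 332 CPM (SD, n = 46) in C10. The ratio was 4.28-fold, between 4.08-fold and 4.45-fold whichever cell was left out, and Stmn1 was counted in 47 of 48 SVEC and 44 of 46 C10 cells. Clasp1, which steadies growing microtubule ends, was 3.25-fold higher in SVEC. Map2, a microtubule-binding protein of dendrites, had counts in 9 SVEC cells (mean 15.4 CPM) and in 1 C10 cell at 0.199 CPM. Over these 4 lists and the other tubulins together, 17 of 55 genes were at least 2-fold higher in SVEC and 2 in C10, beside 23.8% and 15.6% of all genes. Under TMM scaling 13 and 8 of 56 were, beside 15.0% and 25.8% of all genes.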

How the data were processed

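RNA was measured in 116 libraries. SMART-Seq v4 Plus chemistry gave full-length cDNA, sequenced as single reads of 150 bases, per the labels' protocols. The authors deposited whole-number read counts per gene symbol, 1 file per library, with no normalization. FastQC, STAR and HTSeq are named in the submitters' processing notes. Versions, roles, genome build, annotation and strand setting are not given in the sources used here, and coordinates were left out. No molecular identifiers are described, so intervals and limits of 3 counts cover counting error only.

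The 10 members and the gene lists were chosen with earlier results of these data known. Counts were scaled to CPM over gene rows. Closing counters were left out, and ambiguous reads were at a median of 4.12% in C10 and 4.34% in SVEC cells. Below 1000 gene counts a library entered no value but the number of libraries. Lengths and sequences came from GENCODE M21 (GRCm38), with the alpha gene sequences not reported here, and gene names and overlaps from RefSeq GRCm38.p6. Shares used libraries with at least 20 counts on the family. A gene is called at least 2-fold different between lines when its mean is at least 10 CPM in at least 1 line. Besides the members, the 3 genes of each list with the largest ratio and the 5 non-tubulin genes per line ranked most like the summed members were named. Tubb4b, Ttc5 and the ratio of Tubb2a to Tubb2b were singled out after their values were seen. Pools of 3 and 10 cells were compared with edgeR 4.0.16 (quasi-likelihood, TMM, genes with a count in 50% or more of either group's libraries, adjusted p under 0.05), and with limma 3.58.1 and DESeq2 1.42.0 as alternatives in R 4.3.3. The edgeR and limma tests were tested on simulated data. Other steps used Python 3.11.15, pandas 2.3.3 and scipy 1.17.1. The closest pair of libraries in any group had a chi-square of 3.23 per degree of freedom, above sampling noise, so no library was counted as a second deposit.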

Additional observations from a re-analysis of the deposited data

Results flagged for a closer look

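In the input series, 7 of 27 sets of member values held a library far from the rest by Dixon's criterion. The 1-cell sets include replicate 1, which had 0 counts on every member. For independent, normally spread values it would be met in about 1 in 20 sets (1.35 of 27). CPM of a few cells need not be spread that way, and Tubb2a and Tubb2b moved in step. The 7 sets are therefore not read as an excess over that rate. In the 1-cell libraries, replicate 2 had the highest Tubb2a at 275.1 CPM (others up to 119.8 CPM) and the highest Tubb2b at 45.3 CPM (others up to 18.4 CPM), so the same library stood apart for both genes of that pair. Replicate 6 had the highest Tubb3 at 27.5 CPM (others up to 6.76 CPM), and replicate 10 the highest Tubb6 at 686.8 CPM (others up to 274.6 CPM). Among 3-cell libraries, replicate 5 had Tubg1 at 449.1 CPM against 30.1 to 176.2 CPM. Among 10-cell libraries, replicate 10 had the lowest Tuba1c at 354.0 CPM, against 650.9 to 763.5 CPM, and the highest Tubg1 at 226.8 CPM, against 65.1 to 125.2 CPM.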

How the results depend on the processing

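Cells of each line come from 1 named source, SVEC libraries are shallower, and reads shared between copies limit what Tuba1a, Tuba1c, Tubb2a and Tubb2b can show. With medians over cells, 1 member (Tubb6, log2 ratio -1.07) was at least 2-fold higher in SVEC, against 0 with means. By medians, 308 of all 3868 genes were at least 2-fold higher in SVEC and 1988 in C10. TMM scaling moved the genes of the 5 lists higher in C10 from 2 to 8, and no level minimum to 6. For all genes, 39.6% of calls were higher in C10 with totals and 63.3% with TMM. Between the pools, DESeq2 called 564 genes and limma 14, against 0 in edgeR. The cause of these moves was not tested. With the replicate number as a block, edgeR called 0 genes (1284 at an unadjusted p under 0.05) and 0 members, with an adjusted p of 0.4997 for Tuba1a; over all settings that p ran from 0.0763 to 0.536. Same-numbered libraries had a mean correlation of 0.0162 in their deviations, over 0.1 in 0 of 6 pairs, and 2 of 6 libraries correlated best with their own number, so the numbers were not taken to pair them. Of the summary values, 141 stayed within their spread or 1.5 times the count and 5 moved. Of the single-gene and list values, 233 stayed and 18 moved. These limits are wide, so the tally does not measure stability. A ratio between lines stayed if it moved by less than the SD between C10 cells. Under TMM scaling the summed tubulins (-0.10 to 0.31) and Tubg1 (-0.08 to 0.21) changed sign and still counted as staying. The 1 member higher in C10 also did, though medians changed it from Tubb3 to Tuba4a.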
